A study of Mus musculus with 6 samples.

Results

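Guanylate-binding proteins (GBPs) and immunity-related GTPases (IRGs) are the members described here: Gbp2b, Gbp2, Gbp3, Gbp4, Gbp6, Gbp7, Igtp, Irgm1, Irgm2 and Iigp1. They were followed in CD4+CD25+ T cells of HDAC6 knockout mice and of C57BL6 wild-type mice, a population enriched in regulatory T cells (Treg), which restrain immune responses. HDAC6 is a mainly cytoplasmic deacetylase. Total RNA of magnetically separated cells was hybridised to 1-colour arrays, with 3 arrays for the knockout and 3 for the wild type, described as independent samples. The labels name a strain for the wild type alone and no treatment for either genotype. The sources used here do not give the age of the mice, how the knockout allele was made or whether a sample pooled animals.

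The family was put together with the knockout contrast in view: Gbp2b was selected on its low knockout values, and its relatives were picked by name to be set beside it. The knockout contrast of all members is therefore given as a description and tests nothing. Of the 10 listed genes 9 had a probe set that names a single gene, out of 12393 such genes on the array, with 12 probe sets in all. Gbp2, Gbp7 and Iigp1 had 2 probe sets each and the other 6 measured genes had 1. Gbp4 was named only by a probe set shared with Gbp8, which read between 4.86 and 5.18 in the knockout and between 4.88 and 5.16 in the wild type and is assigned to neither gene. Levels are RMA values on the log2 scale, on which a step of 1 is a doubling, and they can be compared between arrays for one probe set but not between probe sets.

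GBPs are large GTPases of the dynamin superfamily that interferon-gamma induces in most cell types. They assemble on vacuoles that hold bacteria or parasites and on bacteria in the cytosol, and they feed inflammasome activation. IRGs are smaller GTPases that interferon induces in mice. Irgm1, Irgm2 and Igtp (also called Irgm3) sit on the cell's own membranes and regulate the family, whereas Iigp1 (also called Irga6) is loaded onto the vacuoles of intracellular parasites. In CD4 T cells, Irgm1 is known to protect activated cells from death driven by interferon-gamma. Gbp2b, formerly called Gbp1, lies between Gbp3 and Gbp2 in a cluster on chromosome 3. Gbp6 belongs to a second cluster on chromosome 5 and Igtp, Irgm1 and Irgm2 lie on chromosome 11.

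Interferon reaches these genes through elements upstream of their starts, among them the interferon-stimulated response element (ISRE), bound by IRF factors, and the gamma-activated sequence (GAS), bound by STAT factors. The promoters of Gbp2b and of its neighbour Gbp2 are shown because these genes stand next to each other and lay on opposite sides of wild type in the knockout. Gbp7 is shown from the same cluster and Igtp from the IRGs. Each is the 250 bases before the start in RefSeq, build GRCm38.p6, 5′ to 3′ on the plus strand, at chr3:142594597-142594846 for Gbp2b, chr3:142620413-142620662 for Gbp2, chr3:142530086-142530335 for Gbp7 and chr11:58199306-58199555 for Igtp. Capitals mark matches on either strand to the ISRE core (GAAANNGAAA) or to GAS (TTCNNNGAA), where N is any base.
Gbp2b: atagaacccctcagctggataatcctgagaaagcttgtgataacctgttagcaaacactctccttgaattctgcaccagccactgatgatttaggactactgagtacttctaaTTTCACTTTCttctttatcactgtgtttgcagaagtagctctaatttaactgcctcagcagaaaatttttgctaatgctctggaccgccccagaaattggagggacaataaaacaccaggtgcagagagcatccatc
Gbp2: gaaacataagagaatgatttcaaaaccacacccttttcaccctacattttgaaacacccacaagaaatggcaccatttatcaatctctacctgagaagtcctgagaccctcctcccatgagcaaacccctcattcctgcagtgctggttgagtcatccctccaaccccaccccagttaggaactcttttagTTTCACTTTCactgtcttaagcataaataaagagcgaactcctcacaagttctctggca
Gbp7: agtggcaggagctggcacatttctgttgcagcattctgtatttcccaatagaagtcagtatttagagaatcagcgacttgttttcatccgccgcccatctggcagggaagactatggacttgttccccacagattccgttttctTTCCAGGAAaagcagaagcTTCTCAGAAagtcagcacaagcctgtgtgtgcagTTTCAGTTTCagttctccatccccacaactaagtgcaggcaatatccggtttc
Igtp: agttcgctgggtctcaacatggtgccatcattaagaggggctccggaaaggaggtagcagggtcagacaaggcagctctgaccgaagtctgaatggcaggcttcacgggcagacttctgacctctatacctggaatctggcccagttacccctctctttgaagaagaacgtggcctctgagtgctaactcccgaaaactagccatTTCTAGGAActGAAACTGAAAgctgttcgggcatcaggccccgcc

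An ISRE core stood in these windows for all 7 members that have a promoter entry, against 2.98% of the 32851 mouse promoters searched over the same length. Gbp4, Gbp6 and Iigp1 had no entry. Gbp2b and Gbp2 carried the same 10 letters, TTTCACTTTC, which match the motif on the minus strand. The match began 137 bases before the start in Gbp2b and 59 bases before it in Gbp2. In the other members the matches began between 24 and 64 bases before the start, so Gbp2b's lay farthest from its start. Gbp3 had 2 annotated starts, with 2 overlapping matches before one of them and 0 before the other, and Irgm1 had 2 overlapping matches. GAS matched in 3 of the 7 members, namely Gbp7, Igtp and Irgm2, against 7.02% of all promoters. The Igtp and Irgm2 windows shared a run of 55 identical bases, whose place in the windows was not recorded. It cannot hold their GAS matches, which differ in letters (TTCTAGGAA in Igtp and TTCCAGGAA in Irgm2). These are matches of letters and show no binding.

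Gbp2b lay below wild type in all knockout arrays, on the other side from most of its family, of which limma called no other member. Among the other measured GBPs, Gbp2 and Gbp6 lay above wild type, and Gbp3 and Gbp7 lay below it. Gbp2b read 6.75, 6.56 and 6.77 in the knockout, against 8.01, 8.21 and 8.03 in the wild type. The genotypes did not overlap, and the gap between them was several times the spread within either. The knockout mean was 6.69 (SD 0.12) and the wild-type mean 8.09 (SD 0.11, 3 arrays each), a difference of -1.39 (SE 0.09), or 2.63-fold lower. In the bulk samples used here, fewer cells that express a gene and less RNA per cell cannot be told apart.

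**Figure D1:**
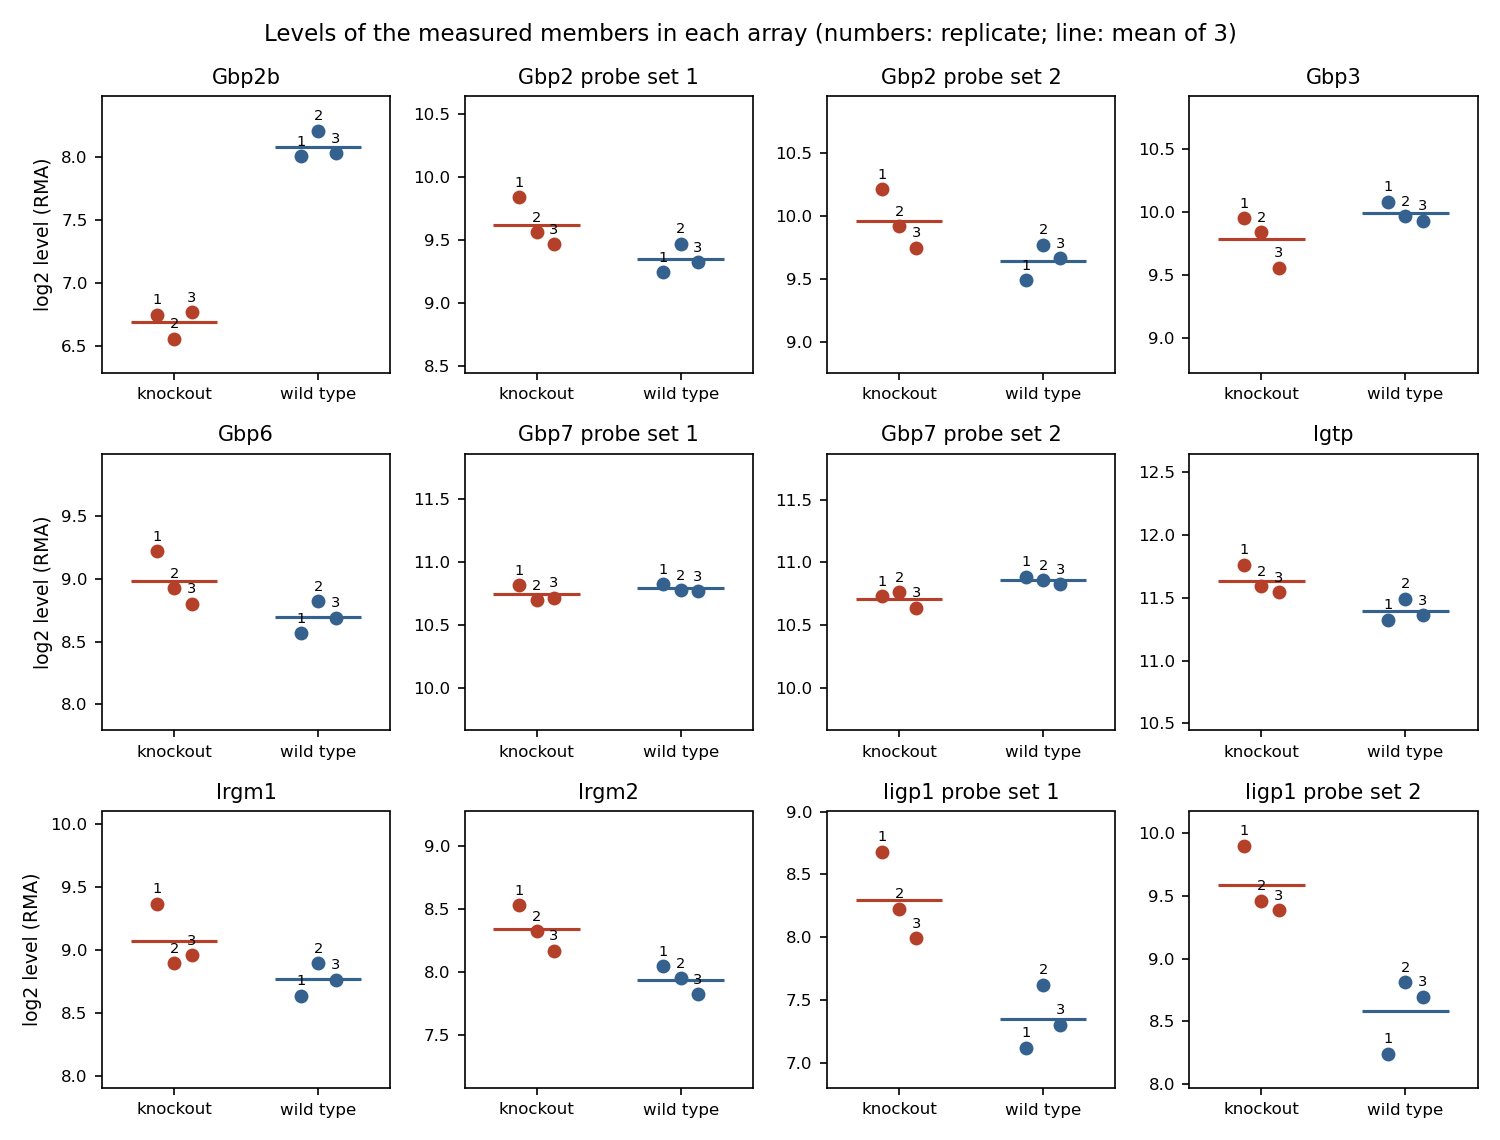
Log2 level (RMA) of each member probe set in each array, knockout at the left and wild type at the right of each panel, with the replicate number above each point and a line at the mean of 3 arrays. All panels span the same log2 range. Gbp2b sits at 6.69 in the knockout and 8.09 in the wild type, and both Iigp1 probe sets are separated the other way.

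Over the whole table, limma's test placed 1 of the 12 member probe sets past an adjusted p of 0.05, and that was Gbp2b on the low side. Of all 22626 probe sets, 0.194% passed, 0.0796% higher and 0.115% lower in the knockout. Since Gbp2b was put on the list for this fall, nothing is read from its count. Of the other 11 probe sets 8 were higher and 3 lower in the knockout, with adjusted p-values between 0.120 and 0.854. The median difference over the 12 was 0.28, beside 0.00 over all probe sets. By gene, 6 were higher (Gbp2, Gbp6, Igtp, Irgm1, Irgm2 and Iigp1) and 3 lower (Gbp2b, Gbp3 and Gbp7).

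Iigp1, the vacuole-loading IRG of chromosome 18, lay farthest above wild type. Knockout arrays gave 8.68, 8.23 and 7.99 by its first probe set, against 7.12, 7.62 and 7.30 in wild-type arrays. By its second they gave 9.90, 9.46 and 9.39 in the knockout, against 8.24, 8.81 and 8.70 in the wild type. Neither probe set overlapped between genotypes, and both placed knockout replicate 1 highest and wild-type replicate 1 lowest. The differences were 0.95 (SE 0.20) and 0.998 (SE 0.19), the first of them 1.93-fold. The 2 probe sets target the same gene and are not independent readings of it.

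The 3 regulatory IRGs lay above wild type by less. Irgm2 read 8.53, 8.33 and 8.17 in the knockout, against 8.04, 7.95 and 7.82 in the wild type, a difference of 0.40 (SE 0.11) without overlap. Igtp read 11.76, 11.59 and 11.54 in the knockout, against 11.33, 11.49 and 11.36 in the wild type, a difference of 0.24 (SE 0.09). Its genotypes did not overlap either, although the closest arrays of the 2 genotypes were near each other. Irgm1 read 9.37, 8.89 and 8.96 in the knockout, against 8.64, 8.90 and 8.76 in the wild type. Its genotypes overlapped, since knockout replicate 2 stood just under wild-type replicate 2, and knockout replicate 1 stood far above the rest, with a difference of 0.31 (SE 0.14).

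Gbp2, which restricts intracellular parasites and adjoins Gbp2b, lay above wild type by both of its probe sets. The first gave 9.84, 9.56 and 9.46 in the knockout and 9.24, 9.47 and 9.32 in the wild type. The second gave 10.21, 9.92 and 9.75 in the knockout and 9.49, 9.77 and 9.66 in the wild type. Knockout replicate 3 fell just below wild-type replicate 2 in both, so the genotypes overlapped. The differences were 0.28 (SE 0.11) and 0.32 (SE 0.13), and the second probe set is of a class that the array's naming marks as able to bind related transcripts. Gbp6, a relative from the chromosome 5 cluster, followed the same order, with 9.22, 8.92 and 8.80 in the knockout and 8.57, 8.82 and 8.69 in the wild type, a difference of 0.29 (SE 0.12).

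Gbp3 and Gbp7, which lie on the other side of Gbp2b from Gbp2, were slightly below wild type. Gbp3 read 9.95, 9.84 and 9.56 in the knockout, against 10.08, 9.97 and 9.93 in the wild type, a difference of -0.21 (SE 0.11). Its genotypes overlapped, with knockout replicate 1 inside the wild-type range. Gbp7, linked to host defence in mouse macrophages, differed by -0.05 (SE 0.07) in its first probe set, with overlap. Its second gave 10.73, 10.76 and 10.64 in the knockout, against 10.89, 10.86 and 10.83 in the wild type, a difference of -0.15 (SE 0.07) without overlap. Both intervals of Gbp7, -0.21 to 0.11 and -0.31 to 0.01, lie far from the -1.39 of Gbp2b. So the chromosome 3 cluster held 1 gene far below wild type, 2 slightly below and 1 slightly above.

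All knockout arrays lay above all wild-type arrays in 4 of the 12 probe sets, against 7.68% of all probe sets, and below them in 2 of 12, against 9.48%. The 4 were those of Iigp1, Igtp and Irgm2, and the 2 were Gbp2b and the second of Gbp7. Since Gbp2b was selected on its low knockout values, nothing is read from the count of 2. Knockout replicate 1 was the highest knockout array in 10 of 12 probe sets, the exceptions being Gbp2b and the second probe set of Gbp7. Without that array the differences shrank to 0.17 and 0.19 for Gbp2, 0.17 for Gbp6 and 0.16 for Irgm1, each by more than 1.5 times. They were 0.17 for Igtp, 0.31 for Irgm2, and 0.76 and 0.84 for Iigp1. Gbp2b was at -1.42 without it, Gbp3 at -0.30, and Gbp7 at -0.09 and -0.16. Gbp3 rested on another array, at -0.10 without knockout replicate 3. The first probe set of Gbp7 stayed within -0.09 to -0.02 over the alternatives.

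**Figure D2:**
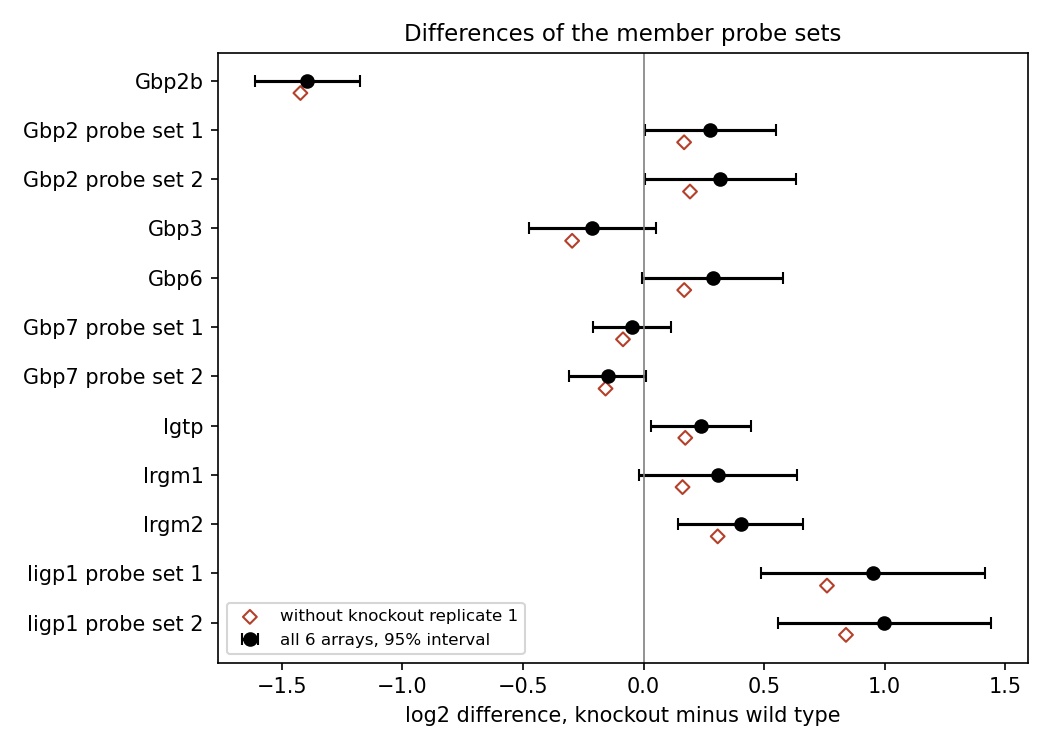
Log2 difference, knockout minus wild type, of the 12 member probe sets (black points, with 95% intervals from the fit to all 6 arrays) and the same difference without knockout replicate 1 (open diamonds). Gbp2b lies at -1.39, the Iigp1 probe sets at 0.95 and 0.998, and the rest between -0.21 and 0.40.

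Set against the wild-type mean, array by array, Gbp2b stood far below the average of the rest of the family. The other 11 probe sets averaged 0.51, 0.26 and 0.15 above the wild-type mean in knockout replicates 1, 2 and 3, where Gbp2b stood at -1.34, -1.53 and -1.32. The gap between Gbp2b and that average was thus -1.85, -1.79 and -1.46, a description of the values that put Gbp2b on the list. Gbp3 and the second probe set of Gbp7 lay below their wild-type means in all 3 knockout arrays, on the same side as Gbp2b, and the lowest value among the other 11 was -0.44.

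Variation among arrays of one genotype does not use the contrast that put Gbp2b on the list, and it was examined as deviations from the genotype means. The 7 probe sets of Gbp2, Gbp6, Igtp, Irgm1 and Iigp1 varied almost as 1 unit, with Pearson's r between 0.893 and 0.996 over their 21 pairs. Knockout replicate 1 and wild-type replicate 2 were the high arrays in each of them. Irgm2, Gbp3 and Gbp7 went with each other more loosely (r from 0.26 to 0.93 over 6 pairs) and with the first group at r between 0.02 and 0.66. This division was made after the values were seen. Gbp2b went with the first group at r between 0.34 and 0.63 and with the second at r between -0.51 and 0.24. It shared the high wild-type replicate 2, at 0.13 above its mean, but its highest knockout array was replicate 3, where all 7 of those probe sets were under their means. Its deviations spanned only -0.13 to 0.13. Each r rests on 6 arrays and 2 fitted means, and the probe sets share the arrays and their normalization, so these values are a description only.

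**Figure D3:**
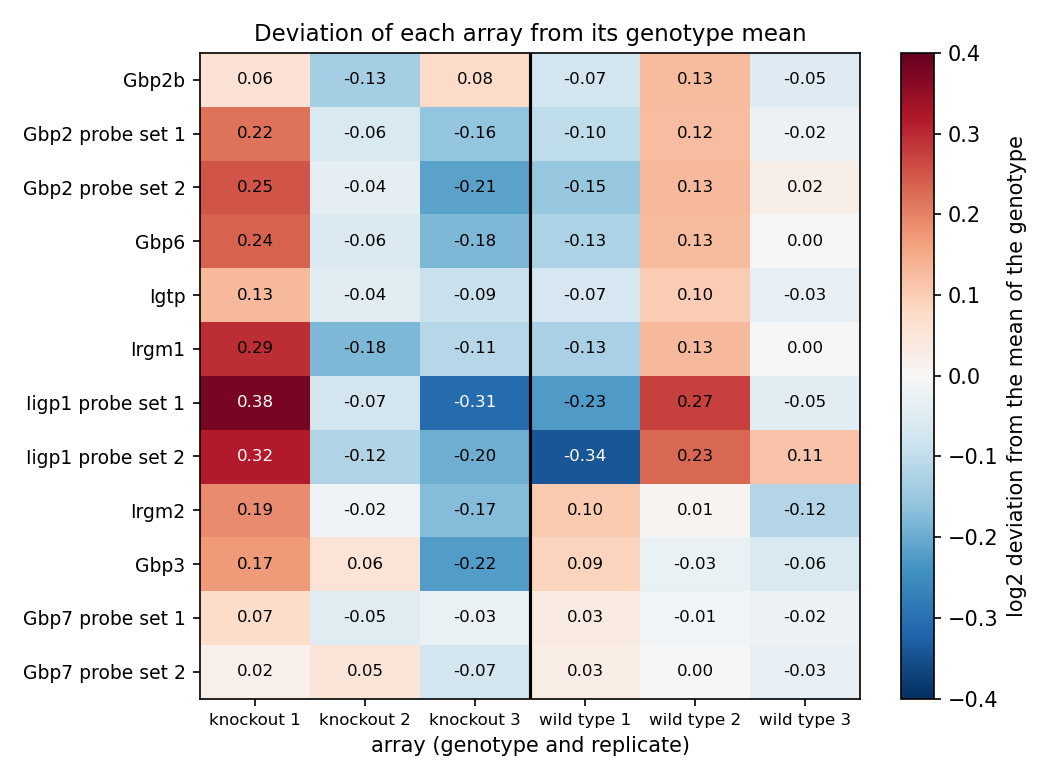
Deviation of each array (columns, knockout replicates 1 to 3, then wild-type replicates 1 to 3) from the mean of its genotype, on the log2 scale, for the 12 member probe sets (rows). Red is above and blue below the mean. The 7 rows from Gbp2 down to Iigp1 share a pattern with knockout replicate 1 and wild-type replicate 2 high, while Gbp2b stays between -0.13 and 0.13.

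No member was among the genes whose pattern was most like that of Gbp2b. Among 7130 genes with a mean level of at least 6, those with the highest r over deviations were Mrpl40, Snhg5, Nudt21, Usp47 and Mmaa, from 0.991 to 0.998. Those with the lowest r were Idh3b, Slc10a3 and Slc2a1, at -0.999, -0.997 and -0.993. Over the arrays as they stand the highest r belonged to Tcta (0.998), Bcas2 (0.996), Nedd4l (0.994), E2f6 (0.992) and Adat2 (0.989), with differences of -0.40, -0.36, -0.53, -0.19 and -0.95. An r this high among so many genes over 6 arrays is a ranking and no more.

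Further GBP and IRG genes lay close to wild type. Of 18 listed relatives, 2 had a probe set of their own. Gbp8, of the chromosome 5 cluster, read 9.66, 9.54 and 9.49 in the knockout, against 9.38, 9.72 and 9.42 in the wild type, a difference of 0.06 (SE 0.11). The IRG gene Ifi47 differed by 0.06 (SE 0.09). Limma called 0 of these 2, and 0 had an unadjusted p under 0.05, beside 11.2% of all 12393 genes. The IRG genes Tgtp1 and Tgtp2 share a probe set that differed by 0.19 (SE 0.15). In all 3 of these probe sets knockout replicate 1 and wild-type replicate 2 were the high arrays of their genotypes, at 11.17 and 10.87 for the shared one.

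The interferon-gamma pathway upstream of the members showed no common shift. Of 14 measured genes for the ligand, its receptor and its signalling, 6 were higher and 8 lower in the knockout, with a median of -0.02. Limma called 0, and 2 of 14 had an unadjusted p under 0.05, beside 11.2% of all genes. The ligand gene Ifng read 7.81, 7.97 and 8.24 in the knockout, against 7.65, 8.38 and 8.58 in the wild type, with overlap. Its receptor chains Ifngr1 and Ifngr2 differed by 0.00 and -0.13, the kinases Jak1 and Jak2 by -0.11 and -0.03, and the factor Irf1 by 0.17. The genes with the smallest p were phosphatases: Ptpn11 at 0.34, Ptpn2, which dephosphorylates JAK and STAT proteins, at -0.24, and Ptpn6 at -0.18, with adjusted p-values of 0.157, 0.367 and 0.492 by limma.

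Other targets of interferon-gamma were mostly a little above wild type. Of 19 measured, 14 were higher and 5 lower, with a median of 0.06. Limma called 0, and 3 of 19 had an unadjusted p under 0.05, beside 11.2% of all genes. These were the peptide transporter Tap1 (0.23), the inhibitory ligand gene Cd274 (0.22) and the immunoproteasome subunit Psmb9 (0.17), all without overlap. Knockout arrays lay above all wild-type arrays in 4 of the 19, beside 8.28% of all genes, and below them in 0, beside 10.3%.

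Most type I interferon targets lay above wild type, by amounts that depended on knockout replicate 1. Of 25 measured, 22 were higher and 3 lower, with a median of 0.40 beside 0.00 over all genes, and 12 had all knockout arrays above wild type, beside 8.28% of all genes. Limma called 0 of them, and 10 had an unadjusted p under 0.05, beside 11.2% of all genes. Oasl2 read 6.06, 5.21 and 4.69 in the knockout, against 3.34, 3.90 and 4.02 in the wild type. Its wild-type values lay under the arrays' lower quartiles of 4.14 to 4.25. Rsad2, an antiviral enzyme, read 7.65, 6.53 and 7.03 in the knockout, against 5.93, 5.81 and 6.01 in the wild type, and Mx1, another dynamin-like antiviral GTPase, differed by 0.74. The list averaged 0.76, 0.22 and 0.27 above the wild-type mean in knockout replicates 1, 2 and 3. Without replicate 1 its median was 0.14, with 22 higher, and that of the other interferon-gamma targets was 0.08. The difference between the lists was not tested. Among knockout arrays, replicate 1 was thus the high one for this list, as it was for the Gbp2 and Iigp1 probe sets. The wild-type arrays did not share that likeness. The list averaged -0.11, -0.01 and 0.12 around its mean in wild-type replicates 1, 2 and 3, whereas those probe sets were highest in replicate 2. The part of knockout replicate 1's state in the members' differences was not tested.

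**Figure D4:**
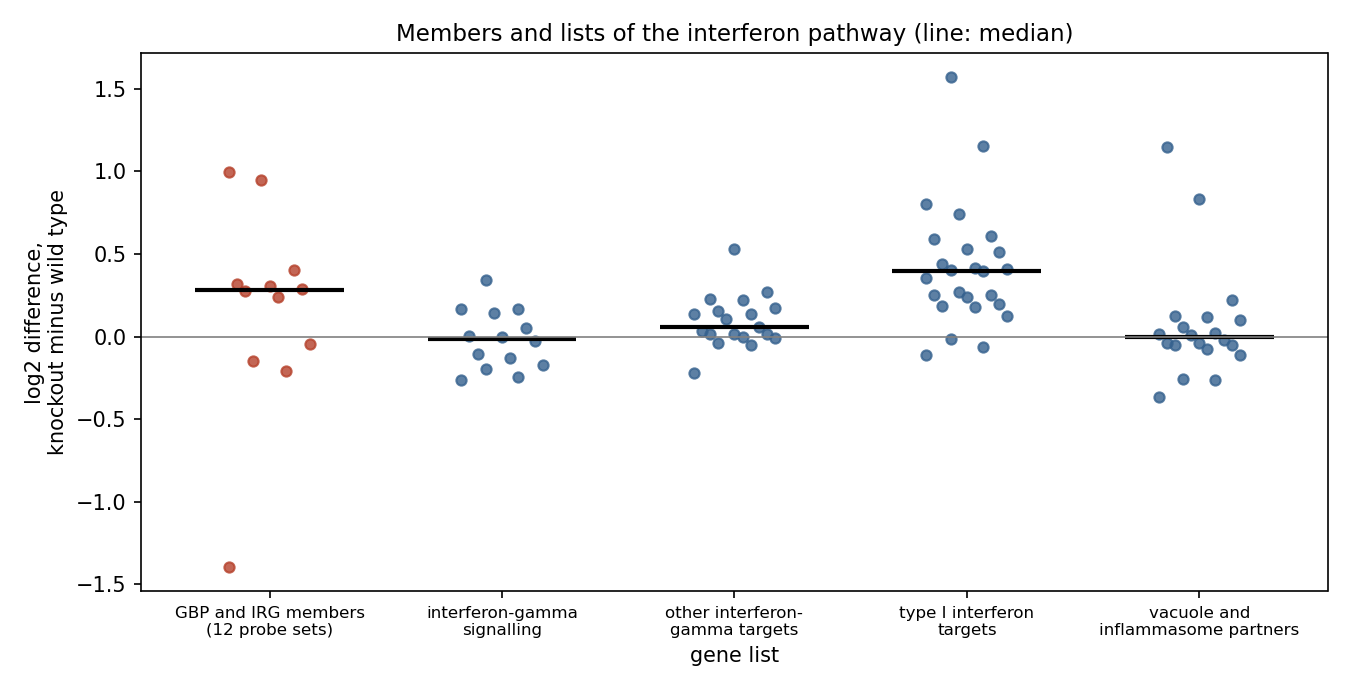
Log2 difference, knockout minus wild type, of the 12 member probe sets (red) and of the genes of 4 lists of the interferon pathway (blue, brightest probe set per gene), with a line at each median. The medians are 0.28 for the members, -0.02 and 0.06 for the interferon-gamma lists, 0.40 for type I targets and 0.00 for partners. Gbp2b is the low red point at -1.39.

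Genes whose products work with GBPs and IRGs at vacuoles and in inflammasomes went both ways. Of 20 measured, 10 were higher and 10 lower, with a median of 0.00. Limma called 1 higher and 0 lower, beside 0.0565% of all genes higher and 0.113% lower, and 3 of 20 had an unadjusted p under 0.05, beside 11.2% of all genes. The 1 called was Casp1, the inflammasome protease, which rose by 0.83 (SE 0.07). It was not called without knockout replicate 2 or without wild-type replicate 2. The list was chosen with earlier results of these data known, so nothing is read from its count of 1. Casp4, the mouse caspase-11 that responds to bacterial lipopolysaccharide with help from GBPs, read 9.07, 8.88 and 8.72 in the knockout, against 8.20, 7.33 and 7.69 in the wild type, without overlap, a difference of 1.15 (SE 0.21) and an adjusted p of 0.118 by limma. The galectin gene Lgals8, whose product marks damaged vacuoles, differed by -0.37, and the ubiquitin ligase Trim21 by 0.22. The autophagy genes Atg3, Atg5, Atg7 and Atg16l1 differed by -0.05, -0.26, 0.10 and 0.01.

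Most genes beside the cluster on chromosome 3 lay near wild type, several of them at dim levels, with an exception at Lmo4. Of the 10 nearest measured genes on each side, 7 were higher and 13 lower in the knockout, with a median of -0.03. Limma called 0 of the 20, beside 0.0565% of all genes higher and 0.113% lower, and 3 had an unadjusted p under 0.05, beside 11.2%. Lmo4, a LIM-domain transcriptional regulator and the third measured gene beyond Gbp2, read 8.43, 8.30 and 8.83 in the knockout, against 9.42, 9.73 and 9.50 in the wild type. Its difference was -1.03 (SE 0.15) without overlap, and its adjusted p was 0.0730 by limma. The next largest differences were those of Clca1 (0.20), Adh4 (0.19) and Sh3glb1 (0.19). Clca1 and Adh4, like Pdha2, Clca3a1, Clca3a2 and Clca3b, read under the arrays' lower quartiles of 4.14 to 4.25 on every array. A fall in genes this dim could hardly show, so their small differences say little. Adh1, the next measured gene outside the 10 and named after its values were seen, read 5.67, 6.09 and 5.84 in the knockout, against 7.25, 7.31 and 7.22 in the wild type. Its difference of -1.39 (SE 0.11) was as large as that of Gbp2b, and limma called it, with an adjusted p of 0.00911. The genes between these 3, Gbp2, Gbp3 and Gbp7 included, differed by at most 0.32 in size.

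**Figure D5:**
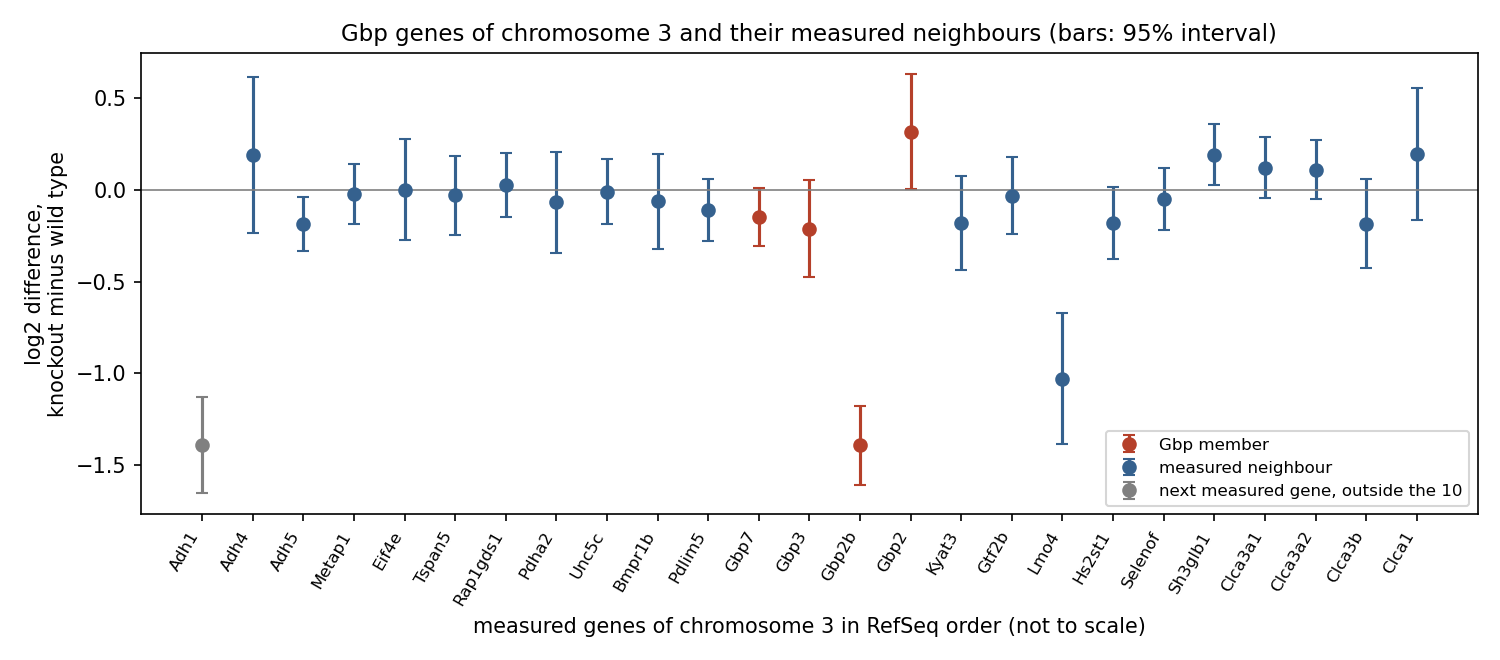
Log2 difference, knockout minus wild type, with 95% intervals, of the Gbp members of chromosome 3 (red), their 10 nearest measured genes on each side (blue) and the next measured gene, Adh1 (grey), in RefSeq order and not to scale. Gbp2b at -1.39, Lmo4 at -1.03 and Adh1 at -1.39 stand apart from genes that lie between -0.21 and 0.32.

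Array medians lay between 6.22 and 6.27. Hdac6 read 7.54, 7.86 and 7.64 in the knockout, against 8.54, 8.23 and 8.42 in the wild type, and the sources used here do not say whether its probe set lies within the deletion. The Treg and T cell markers were present in both genotypes. Of 7 markers, Foxp3 and Il2ra included, 5 were higher and 2 lower, and their mean level was 10.15 to 10.22 in the knockout and 10.08 to 10.19 in the wild type. The 5 plasma cell markers were all higher in the knockout, at mean levels of 10.68 to 11.09 against 10.06 to 10.25 in the wild type. In 4 of the 5 all knockout arrays lay above all wild-type arrays, beside 8.28% of all genes. Limma called 1 of the 5, beside 0.0565% of all genes called higher. This was the immunoglobulin gene Igha, which rose by 1.81 (SE 0.14, adjusted p 0.00799 by limma). Myeloid and antigen-presenting markers, which mark cells rich in GBPs, were higher in 3 and lower in 7 of 10. Their mean level was 6.60 to 6.92 in the knockout and 6.79 to 7.10 in the wild type. Limma called 0 of the 10, and 2 had an unadjusted p under 0.05, beside 11.2% of all genes. Among the 10 markers, Itgam read at most 3.79, under the lower quartile of every array. Cd74, H2-Aa and H2-Ab1 read at least 8.77 on each array. B cell markers were higher in 2 and lower in 2 of 4 (7.04 to 7.58 in the knockout, 7.42 to 7.82 in the wild type), with Ms4a1 at -1.13 without overlap (adjusted p 0.236 by limma). CD8 markers were higher in 1 and lower in 1 of 2 (6.10 to 6.22 in the knockout, 6.17 to 6.29 in the wild type). NK cell markers were higher in 0 and lower in 3 of 3 (6.82 to 7.40 in the knockout, 7.20 to 7.39 in the wild type). Endothelial markers were higher in 2 and lower in 1 of 3 (5.74 to 6.03 in the knockout, 5.71 to 5.90 in the wild type). The part of these cells in the members' values was not tested.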

How the data were processed

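Values for 22690 probe sets on 6 arrays were deposited by the authors in 1 table, made with RMA per the submitters' processing notes, which give no version. The deposited values were read as log2 from their range and were not normalized again. RMA compresses differences of dim and of very bright probe sets. Control probe sets (64) were dropped. Gene names are those of GEO's platform annotation, brought up to date by gene ID with RefSeq (GRCm38.p6), which held 20351 of 22626 probe sets. Names were taken only from the 20380 that carry 1 symbol (691 carry several, 1555 none). The sources used here name no build for the array, and RefSeq gene order served only to find neighbours.

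Knockout was compared with wild type over all 22626 probe sets by limma 3.58.1 (R 4.3.3; lmFit, then eBayes) in a model of genotype alone. Two-sided p-values were adjusted by Benjamini-Hochberg, with a threshold of 0.05. Differences are knockout minus wild type. Lists and neighbours use the brightest probe set of a gene. Precision is limited by the number of arrays, and the median SE of the member probe sets was 0.11. The p-values measure the spread between these samples, whose animals were not described. The fit was tested on simulated data.

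The members and lists were chosen with earlier results of these data known. All members are named. From each list of the pathway the text names the genes past the threshold and up to 3 more by smallest p, and Ifng, its receptor and Janus kinase genes, Irf1, 4 Atg genes and the named cell markers were added by role after their values were seen. Neighbours are named if past the threshold or among the largest differences. The alternatives tried were leaving out each array, array weights, trend with robust eBayes, quantile normalization, median centring, the replicate number as a block, keeping the upper 60% of probe sets or those with a mean of at least 6, 1 probe set per gene, the mean of a gene's probe sets, a threshold of 0.1 and a 1.5-fold minimum.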

Additional observations from a re-analysis of the deposited data

How the results depend on the processing

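Over 165 alternative values of the 12 member probe sets, all 165 kept their direction and their side of the threshold. Gbp2b ranged from -1.46 to -1.33 and was the 1 member called under each alternative, with the count at 1 in every fit that leaves out an array. Iigp1 ranged from 0.76 to 1.104 and from 0.83 to 1.11 in its 2 probe sets, and the lowest adjusted p of any probe set but Gbp2b's was 0.0760. Among the interferon pathway lists limma called 1 gene, Casp1, and 0 with the replicate number as a replicate block. With 1 array left out that count was 0 to 1, and it was 0 when replicate 2 of either genotype was left out. Among the chromosome 3 neighbours limma called 0, but called 1, Lmo4, with trend and robust settings (1), with array weights (1) and at a threshold of 0.1 (1), and 0 to 1 with 1 array left out, Lmo4 being called without knockout replicate 3. The cause was not tested. Same-numbered arrays deviated together at r = 0.22, -0.09 and 0.10, so the numbers were not taken as pairs. The replicate block left the member count at 1 and the neighbour count at 0. With 3 arrays a genotype, the intervals of Gbp3, Gbp6, Gbp7 and Irgm1 include 0.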
